A study of Homo sapiens with 28 samples.

Results

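Open chromatin was examined at YAP1 and TEAD1, which encode a coactivator and a DNA-binding partner of the Hippo pathway, and at 3 of their classical target genes, CYR61, CTGF and ANKRD1. For each of these 5 genes, every peak of the 28 deposited peak lists that overlapped the gene or the 50 kb on either side of it (hg19) was taken. This gave 1070 of the 1245967 peaks on chromosomes 1 to 22 and X. The peaks merged into 88 of the 95411 regions of the series when the whole lists were used, and into 26 of 32972 regions when all lists were trimmed to the same length. The 26 regions were distributed as 4 at CYR61, 3 at CTGF, 6 at ANKRD1, 3 at YAP1 and 10 at TEAD1.

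The Hippo pathway is a kinase cascade that, when active, keeps the coactivator YAP out of the nucleus. YAP has no DNA-binding domain of its own, and nuclear YAP binds the TEAD transcription factors, which recognise the motif GGAATG in promoters and, more often, in distal enhancers. CYR61 and CTGF encode secreted matricellular proteins that act in adhesion and growth, ANKRD1 encodes an ankyrin-repeat protein, and all 3 are widely used as readouts of YAP and TEAD activity in epithelial tumour cells.

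The cells were AN3CA, an established human endometrial carcinoma line, profiled by ATAC-seq, in which a transposase tags accessible DNA. They expressed a form of ARID1A or ARID1B, the alternative ARID-domain subunits of the canonical BAF chromatin remodeling complex, or an empty vector, and the title of the series concerns the role of these subunits in condensation of the remodeler. The wild-type groups are ARID1A_WT and ARID1B_WT, with 2 libraries each. The altered ARID1A groups, with 2 libraries each, are ARID1A_DBDmut (mutated ARID domain), ARID1A_delIDR1 and ARID1A_CBR (both labelled as truncations), ARID1A_DDX4 (a hybrid with the disordered region of DDX4), ARID1A_Y42S and ARID1A_AQGscramC1C2. The altered ARID1B groups are ARID1B_S320_G327del, ARID1B_A457_G461del, ARID1B_Block13del and ARID1B_Block9del, also with 2 libraries each. Empty_vector has 4 libraries. In 10 libraries of 5 constructs (ARID1A_Y42S, ARID1A_AQGscramC1C2, ARID1B_A457_G461del, ARID1B_Block13del and ARID1B_Block9del) the genotype label names the empty vector while the title names the construct, and these were grouped by title. The labels give neither the promoter that drove the constructs nor whether the lines were clones or pools, and they do not say that replicates were separate cultures, so the p-values measure only the spread between these libraries, which may be technical.

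The peak lists carry no read counts, so depth is unknown, and the fold enrichment, −log10 p-value and −log10 q-value of a peak are the authors' own values, used here to describe and rank peaks within a list. Lists held from 19433 to 76530 peaks on chromosomes 1 to 22 and X. The number of peaks in the 5 windows followed this length: it was 58 and 56 with ARID1A_WT, 56 and 52 with ARID1B_WT, from 13 to 67 in the 20 libraries of altered constructs, and 39, 39, 15 and 19 with Empty_vector. Per 10000 peaks of the list the windows held from 5.98 to 10.7 peaks. Date codes in the names of the peaks divide the libraries into 6 sets, called runs A to F here. The codes were read from the peak names alone, so which step they date is not known. ARID1A_WT shares runs A and B with Empty_vector 1 and 2, ARID1B_WT shares run C with Empty_vector 3 and 4, and run D, which holds ARID1A_DDX4, run E, which holds ARID1A_Y42S and the ARID1B constructs A457_G461del, Block13del and Block9del, and run F, which holds ARID1A_AQGscramC1C2, have no empty vector library. For these 6 constructs the effect of the construct and of the run cannot be told apart.

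**Figure D1:**
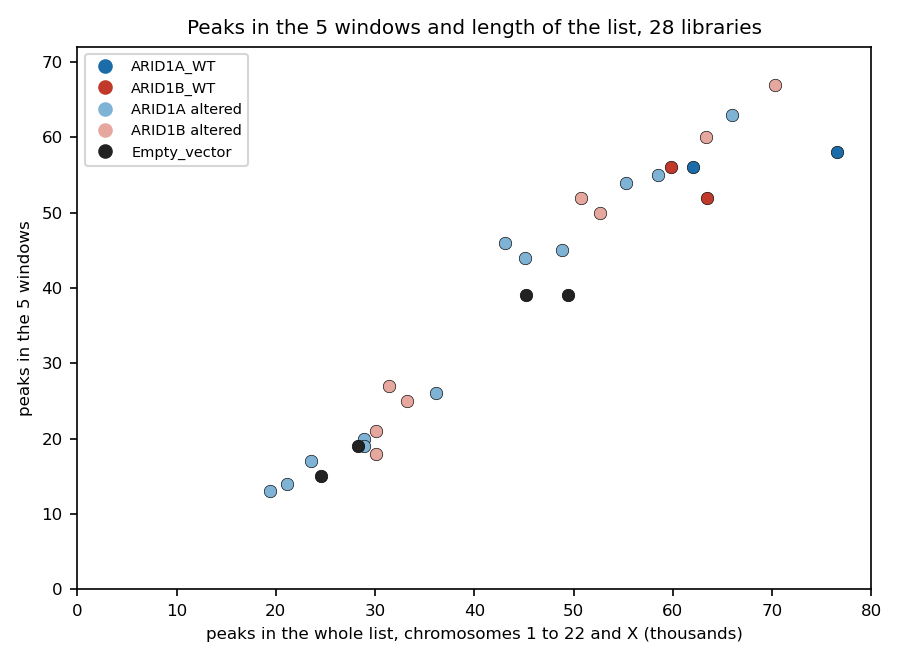
Number of peaks in the 5 windows (vertical axis) against the number of peaks in the whole list (horizontal axis) for each of the 28 libraries, 1 point a library, coloured by class of construct. Windows held between 13 and 67 peaks, longer lists held more, and 2 of the 4 Empty_vector libraries (15 and 19 peaks) lie at the short end.

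The promoters at which accessibility is described are shown as the 250 bases before the start site from RefSeq (GRCh38.p14), available for 3 of the 5 genes, with each GGAATG in capitals. CYR61 (CCN1 in RefSeq) and TEAD1 are named only. The CTGF (CCN2 in RefSeq) promoter is chr6:131951373-131951622 on the minus strand, that of ANKRD1 is chr10:90921088-90921337 on the minus strand, and that of YAP1 is chr11:102110197-102110446 on the plus strand.
CTGF: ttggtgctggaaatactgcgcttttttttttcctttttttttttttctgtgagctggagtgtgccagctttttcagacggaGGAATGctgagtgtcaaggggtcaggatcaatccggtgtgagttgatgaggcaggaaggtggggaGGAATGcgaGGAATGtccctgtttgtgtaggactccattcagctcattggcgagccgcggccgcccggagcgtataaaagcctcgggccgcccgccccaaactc
ANKRD1: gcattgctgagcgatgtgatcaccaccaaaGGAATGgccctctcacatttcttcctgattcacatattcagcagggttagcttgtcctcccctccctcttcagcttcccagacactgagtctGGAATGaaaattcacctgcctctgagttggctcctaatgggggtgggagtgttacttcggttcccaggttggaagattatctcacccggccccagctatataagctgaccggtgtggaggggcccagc
YAP1: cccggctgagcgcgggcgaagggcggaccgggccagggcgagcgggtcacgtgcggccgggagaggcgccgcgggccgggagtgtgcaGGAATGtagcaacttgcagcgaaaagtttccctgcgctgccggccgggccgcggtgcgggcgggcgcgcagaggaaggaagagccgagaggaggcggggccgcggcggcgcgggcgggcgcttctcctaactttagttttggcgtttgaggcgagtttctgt

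A search of both strands found GGAATG 3 times in the CTGF promoter, with first bases 169, 104 and 95 bases before the start. It found the motif 2 times in the ANKRD1 promoter, at 220 and 128 bases, and 1 time in the YAP1 promoter, at 162 bases. Of 35116 human promoters of this length, 11.9% held at least 1 GGAATG, 0.940% held at least 2 and 0.0826% held at least 3. The AP-1 motif TGANTCA occurred 1 time in the ANKRD1 promoter, as TGATTCA, and in 6.57% of all promoters. It was not among the letters of the CTGF and YAP1 windows. The 2 motifs did not overlap in any of the 3 promoters. Such matches describe the letters only. The coordinates of these promoters and of the peaks below are of different builds and were not joined.

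The start sites of the regulators were open in every library. The peak over the YAP1 start site lay within the 19433 most significant peaks of all 28 lists, and so did the peak over the TEAD1 start site. The fold enrichment of the YAP1 peak ranged from 4.18 to 4.51 in the 4 wild-type lists, from 4.01 to 6.20 (median 4.78) in the 20 lists of altered constructs, and from 4.02 to 6.18 in the 4 Empty_vector lists. It was a broad peak, with a median width of 2284 bp over the 28 lists. The TEAD1 peak had a fold enrichment of 4.90 to 6.37 in the wild-type lists, of 4.59 to 6.81 (median 5.58) in the altered lists, and of 4.62 to 6.70 in the Empty_vector lists, with a median width of 1396 bp.

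Ranks are given within lists of equal length, in which rank 1 is the most significant peak. Trimming sets only the number of peaks, and whether a rank still depends on the length of the whole list was not tested. At the YAP1 start site (chr11:101980357-101983018, hg19) the peak ranked 8439 and 8271 with ARID1A_WT, 10382 and 16746 with ARID1B_WT, and 8135, 6840, 6369 and 9259 with Empty_vector. Only ARID1B_WT lay above the whole Empty_vector range, and ARID1A_WT lay within it. The mean rank was 10960 ± 3975 with wild type and 7651 ± 1307 with Empty_vector (SD, n = 4 each), a difference of 3309 ranks towards the less significant end that was not larger than the spread (two-sided exact permutation test, p = 0.114, adjusted p = 0.477 over all 32972 regions). The difference was 1380 ranks without ARID1B_WT 2, and within runs it was 868 for ARID1A_WT and 5750 for ARID1B_WT. ARID1B_S320_G327del, of the same run as ARID1B_WT, ranked it 18847 and 13072, and the other altered constructs ranked it between 4026 and 9939. At the TEAD1 start site (chr11:12695242-12697029, hg19) the ranks were 4679 and 5171 with ARID1A_WT, 8773 and 3231 with ARID1B_WT, and 6612, 4029, 4828 and 5671 with Empty_vector. The ranges overlapped, with means of 5464 ± 2355 and 5285 ± 1110 (SD, n = 4 each, exact permutation p = 0.914), and the difference of 178 ranks became −925 without ARID1B_WT 1 and −240 without Empty_vector 2.

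The start sites of the secreted targets were also called in every whole list, but mostly far down those lists. At CYR61 the peak ranked 48523 of 76530 with ARID1A_WT 1 and 31806 of 63482 with ARID1B_WT 1, and 29358 of 45227 with Empty_vector 1 and 16262 of 24527 with Empty_vector 3. The CYR61 start-site peak had a fold enrichment of 1.78 and 1.96 with ARID1A_WT, 2.67 and 2.84 with ARID1B_WT, from 1.97 to 3.64 (median 2.74) in the altered lists, and 1.92, 2.02, 3.55 and 3.40 with Empty_vector. Each fold belongs to its own list, so these values were not compared between libraries. In lists of equal length the CYR61 start-site region (chr1:86046328-86048296, hg19) was called in 0 of 4 wild-type libraries, in 7 of 20 libraries of altered constructs, namely both libraries of ARID1A_DDX4, ARID1A_Y42S and ARID1A_AQGscramC1C2 and 1 of ARID1B_Block9del, and in 2 of 4 Empty_vector libraries, both of run C. The mean rank with the uncalled libraries set at 19434 differed by 1892 ranks, with exact permutation p = 0.429. It differed by 1057 ranks without Empty_vector 4, and by 0 for ARID1A_WT and 3784 ranks for ARID1B_WT within runs. The 9 libraries that called the region had whole lists of 19433 to 36113 peaks, and wild-type lists held 59776 to 76530. Lists of ARID1B_Block13del (33224 and 31383 peaks) and ARID1B_Block9del 1 (30104 peaks) lay within the former range without a call. The part of list length in these calls was not tested.

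The CTGF start-site peak had a fold enrichment of 3.10 and 3.36 with ARID1A_WT, 3.84 and 4.14 with ARID1B_WT, from 3.48 to 5.60 (median 4.07) in the altered lists, and 3.70, 3.67, 4.15 and 4.78 with Empty_vector. Its median −log10 q-value was 12.2 in the wild-type, 10.3 in the altered and 6.57 in the Empty_vector lists, each value again belonging to its own list. Its median width over the 28 lists was 904 bp. The peak covered the start base itself in 4 of 4 wild-type, 16 of 20 altered and 2 of 4 Empty_vector lists, and otherwise lay within 1 kb of it. The peak reached the equal-length list in 0 of 4 wild-type, 2 of 20 altered (ARID1A_DDX4 1 and ARID1A_Y42S 2) and 0 of 4 Empty_vector libraries. These 2 peaks do not overlap each other, so no region over the CTGF start site was called in 2 libraries and none was compared by rank. The 3 CTGF regions of the lists of equal length lay 27.9, 35.9 and 41.2 kb downstream of the start site, beyond the gene, and were called in 2, 4 and 5 altered libraries, with no call in any wild-type or Empty_vector library. In whole lists they were called more widely, in 1, 3 and 2 of 4 wild-type lists, 7, 17 and 10 of 20 altered lists, and 2, 3 and 2 of 4 Empty_vector lists.

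ANKRD1 was the gene of the 5 whose start site was not called in every list. Its start-site peak had a fold enrichment of 5.69 and 5.36 with ARID1A_WT and of 4.36 and 5.21 with ARID1B_WT, and no peak was called in any of the 4 Empty_vector lists. Of the 20 lists of altered constructs, 11 held the peak. They were both lists of ARID1A_DBDmut (5.85 and 4.53), ARID1A_delIDR1 (4.30 and 5.39), ARID1A_CBR (3.70 and 5.07), ARID1B_S320_G327del (6.0 and 5.94) and ARID1B_A457_G461del (3.94 and 4.35), and 1 of ARID1B_Block13del (3.73). ARID1A_DDX4, ARID1A_Y42S, ARID1A_AQGscramC1C2 and ARID1B_Block9del had none. Among the 19433 most significant peaks it appeared in 5 libraries only, at ranks 10055 and 11576 with ARID1A_WT, 14681 with ARID1A_DBDmut 1, and 2682 and 2898 with ARID1B_S320_G327del. ARID1B_WT did not call it there. The mean rank difference between wild type and Empty_vector was −4309 ranks, with exact permutation p = 0.429. It was −2619 without ARID1A_WT 1, and within runs −8618 for ARID1A_WT and 0 for ARID1B_WT.

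**Figure D2:**
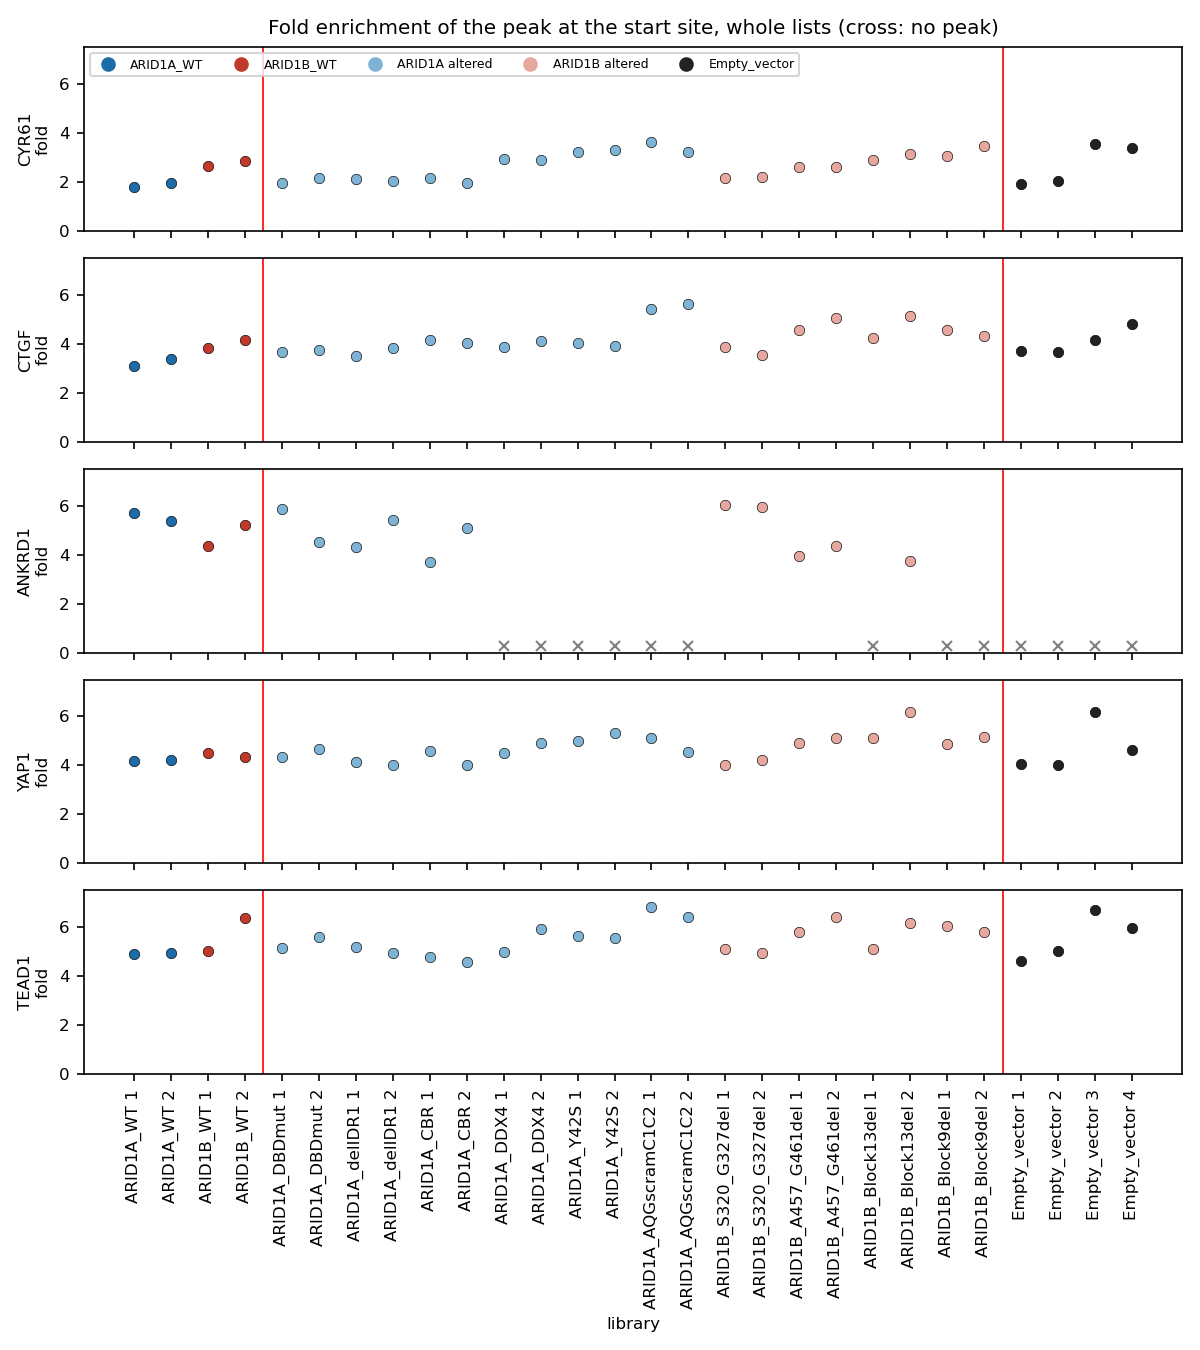
Fold enrichment (vertical axes, linear, from 0) of the peak within 1 kb of each start site in the whole list of each of the 28 libraries (horizontal axis), with 1 panel a gene. Points are single peaks and crosses are lists without a peak. CYR61, CTGF, YAP1 and TEAD1 have a point in all 28 lists, while ANKRD1 has 15 points and crosses in all 4 Empty_vector lists.

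In lists ranked by −log10 p-value, the region with the clearest separation lay 9.7 kb upstream of the ANKRD1 start site (chr10:92689896-92691485, hg19, 1590 bp, outside the gene). Its peak ranked 6318 and 4757 with ARID1A_WT and 3720 and 5780 with ARID1B_WT in lists of equal length, and it was called in 0 of 4 Empty_vector libraries. All 4 wild-type libraries placed it in the upper part of their lists, and the groups did not overlap. The mean rank was 5144 ± 1149 with wild type and 19434, the value set for an uncalled region, with Empty_vector (SD, n = 4 each), a difference of −14290 ranks. Of the 32972 regions, 121 (0.367%) had a difference at least as negative. This was the most negative difference of the 26 regions, so the share only describes a region picked for its value. The two-sided exact permutation test gave p = 0.0286, the smallest that 4 against 4 libraries allow, and adjusted p = 0.200 over all regions. Fisher's exact test of the calls gave the same p and an adjusted p of 0.355. Within the runs, the mean rank was 5538 with ARID1A_WT and 4750 with ARID1B_WT, against no call in either pair of Empty_vector libraries.

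The altered constructs differed widely at this region. In lists of equal length the peak ranked 1306 and 1031 with ARID1B_S320_G327del, ahead of every wild-type library. It ranked 7386 and 6293 with ARID1B_A457_G461del, 9027 and 12175 with ARID1A_DBDmut, 14150 and 10677 with ARID1A_delIDR1, 13049 and 15442 with ARID1B_Block13del, and 18430 with ARID1A_DDX4 2. The remaining libraries of altered constructs did not call it at this length. Weaker peaks appeared there in the whole lists of ARID1A_CBR (rank 33319 of 45089 and rank 24191 of 65949), ARID1A_DDX4 1 (rank 20534 of 21094), ARID1A_AQGscramC1C2 and ARID1B_Block9del. In all, 18 of the 20 lists of altered constructs held a peak, the exceptions being both lists of ARID1A_Y42S, and 0 of the 4 Empty_vector lists did. Within run A, ARID1A_delIDR1 1 and ARID1A_CBR 1 called the region in lists of 43130 and 45089 peaks, and Empty_vector 1 did not in a list of 45227 peaks. The part of list length in these calls was not tested, nor was the part of the run in the values of runs D, E and F.

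**Figure D3:**
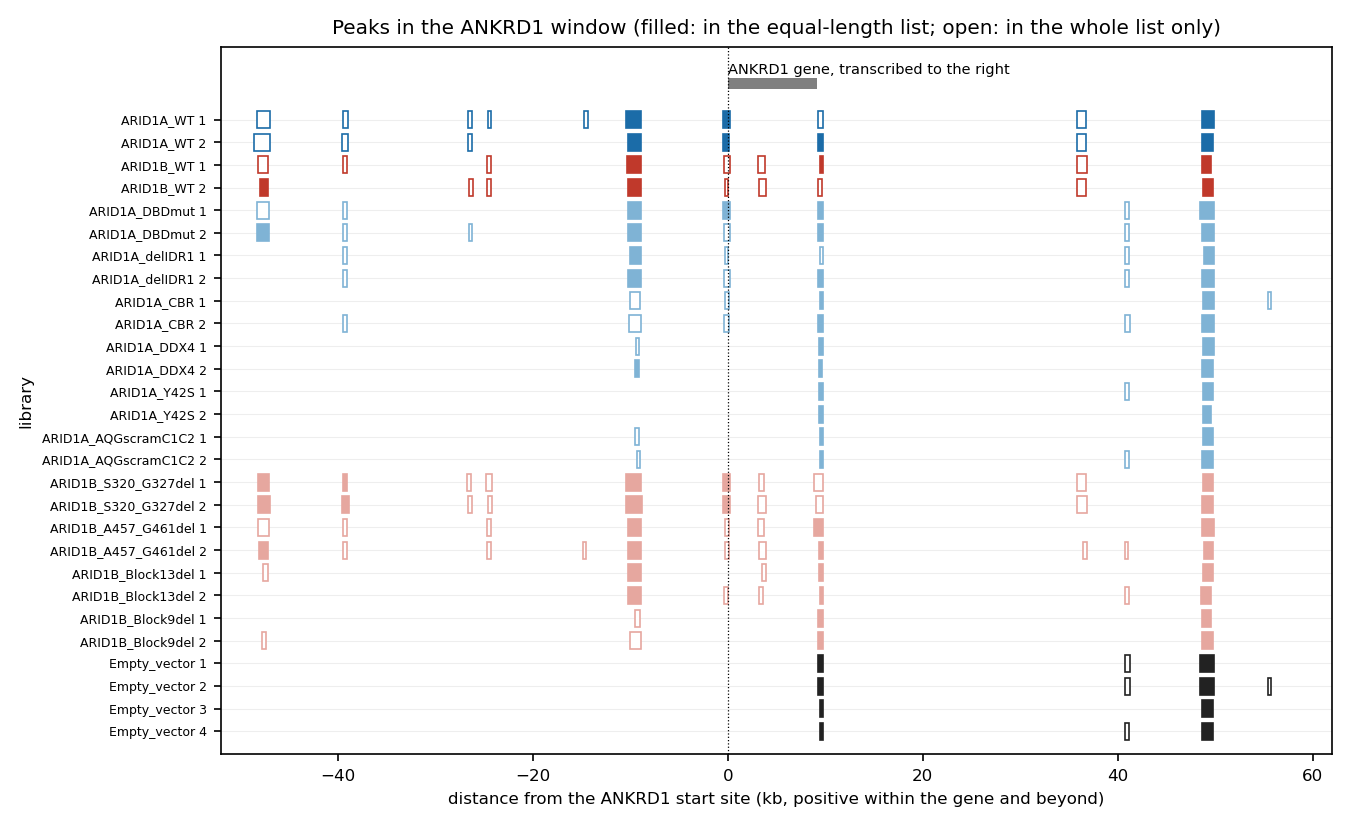
Peaks in the ANKRD1 window, 1 row a library, against the distance from the start site (horizontal axis, kb, positive in the direction of transcription). Filled boxes are peaks within the 19433 most significant of a list and open boxes are peaks of the whole list only. The narrowest peaks are drawn wider than scale. The peak 9.7 kb upstream is filled in the 4 wild-type rows and absent from the 4 Empty_vector rows, and the peaks 49.2 kb and 9.3 kb downstream are present in all 28 rows.

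The other regions of the ANKRD1 window showed several patterns of calls. A region 49.2 kb downstream of the start site was called in all 28 libraries in lists of equal length, with mean ranks of 6697 ± 3012 with wild type and 6189 ± 941 with Empty_vector (SD, n = 4 each, exact permutation p = 0.771), and a region 9.3 kb downstream, at the far end of the gene, was called in all 28 whole lists. Further upstream, a region at 47.8 kb was called in 4 of 4 wild-type, 8 of 20 altered and 0 of 4 Empty_vector whole lists. A region 36.3 kb downstream was called in 4 of 4 wild-type, 3 of 20 altered and 0 of 4 Empty_vector whole lists, and the 3 altered lists were those of ARID1B_S320_G327del and 1 of ARID1B_A457_G461del. A region in the gene body 3.5 kb from the start site appeared in both ARID1B_WT lists, in no ARID1A_WT list, in 6 altered lists, all of ARID1B constructs, and in no Empty_vector list. These 8 lists are of runs C and E, and they ranked the region between 27350 and 52208. Also of run E, both lists of ARID1A_Y42S (28855 and 19433 peaks) and of ARID1B_Block9del (30104 and 30102 peaks) did not call it. The part of list length in these calls was not tested. The opposite pattern occurred 41.0 kb downstream, where a region was called in 0 of 4 wild-type, 9 of 20 altered and 3 of 4 Empty_vector whole lists. A region 55.6 kb downstream was called only in ARID1A_CBR 1 (rank 44592 of 45089) and Empty_vector 2 (rank 44366 of 49468), low in both lists. PCGF5, a Polycomb subunit, and RPP30, a subunit of ribonuclease P, are the RefSeq neighbours of ANKRD1, and no region was assigned to a gene beyond its distance.

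The count over all 5 windows was near the background. In lists of equal length, 1 of 26 regions (3.85%), the ANKRD1 region 9.7 kb upstream, was called in all 4 wild-type and in no Empty_vector library, against 5.78% of all regions. In the opposite direction it was 0 of 26 against 2.27%. In whole lists, 17 of 88 regions (19.3%) were called in all 4 wild-type and no Empty_vector list, against 18.2% of all 95411 regions, and 0 of 88 were called in all 4 Empty_vector and no wild-type list, against 0.0828%. Regions called in all 28 libraries were 3 of 26 (11.5%) against 30.1% in lists of equal length, and 8 of 88 (9.09%) against 16.6% in whole lists. No region passed an adjusted p of 0.05 in the windows or elsewhere, in a design whose smallest possible p is 0.0286. Unadjusted, Fisher's exact test gave p under 0.05 in 1 of 26 regions, against 8.05% of all regions, and the permutation test of ranks in 3 of 26, against 14.3%. The median rank difference, wild type minus Empty_vector, was 0 over the 26 regions and 129 over all 32972. Of the 26 regions, 11 ranked more significant with wild type, 9 less and 6 equal. Of all 32972 regions, 12298 ranked more significant with wild type, 17574 less and 3100 equal.

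Within runs and by construct the counts varied more. ARID1A_WT called 5 of 26 regions (19.2%) that neither Empty_vector library of runs A and B called, against 9.19%, and 0 in the opposite direction, against 6.91%. ARID1B_WT called 2 of 26 regions (7.69%) that neither Empty_vector library of run C called, against 12.6%, and 2 in the opposite direction, against 9.42%. Among the altered constructs, ARID1B_S320_G327del called 9 of 26 regions (34.6%) in both its libraries and in no Empty_vector library, against 15.5%, the largest such count among the 10 altered constructs. ARID1B_A457_G461del and ARID1A_delIDR1 called 3 such regions each, against 9.58% and 3.83%, ARID1A_DBDmut and ARID1A_CBR 2 each, against 3.65% and 2.74%, ARID1A_AQGscramC1C2 and ARID1B_Block13del 1 each, against 0.522% and 1.83%, and ARID1A_DDX4, ARID1A_Y42S and ARID1B_Block9del 0, against 1.29%, 0.634% and 0.682%.

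**Figure D4:**
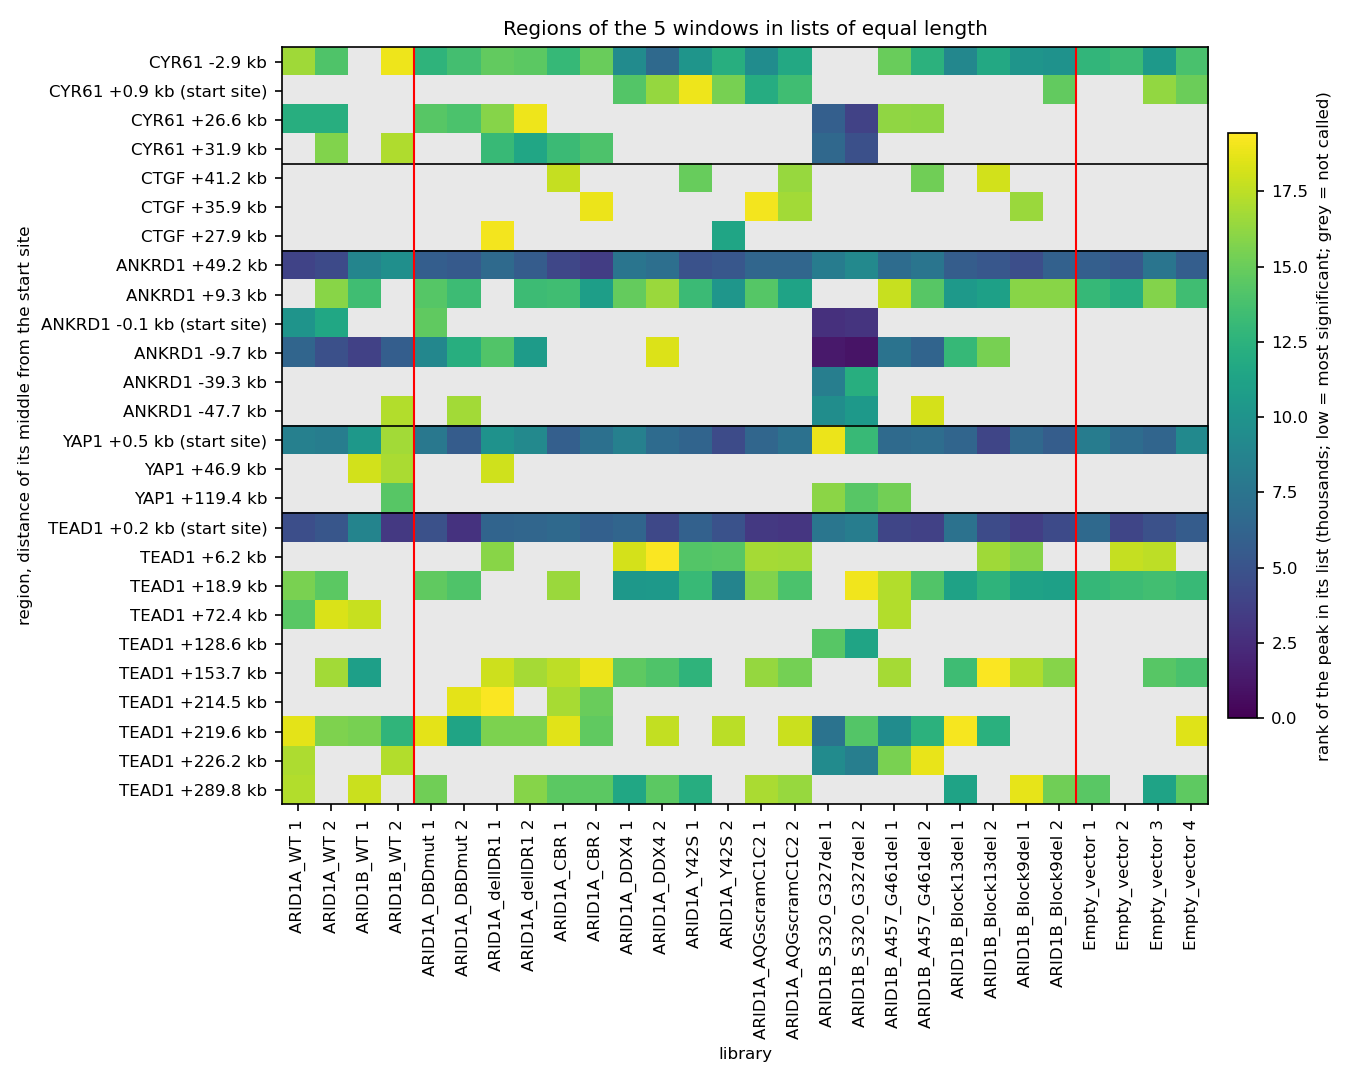
Rank of the peak in each of the 28 libraries (columns, wild type on the left, then altered constructs, then Empty_vector) for the 26 regions of the 5 windows (rows, by distance from the start site) in lists of 19433 peaks. Dark cells are significant peaks and grey cells have no call. The ANKRD1 row 9.7 kb upstream is dark on the left and grey in the 4 Empty_vector columns, and the start-site rows of YAP1 and TEAD1 are filled in all 28.

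A region upstream of CYR61 and a region within TEAD1 ranked less significant with wild type in the same test. The region 2.9 kb upstream of CYR61 (chr1:86041731-86045436, hg19) ranked 16666 and 14073 with ARID1A_WT, was uncalled and 18936 with ARID1B_WT, and ranked 12788, 13217, 10419 and 13878 with Empty_vector. The groups did not overlap, though the nearest libraries, ARID1A_WT 2 and Empty_vector 4, were close. The means were 17277 ± 2452 with wild type and 12576 ± 1506 with Empty_vector (SD, n = 4 each), a difference of 4702 ranks (exact permutation p = 0.0286, adjusted p = 0.200). The difference was 2367 for ARID1A_WT and 7036 for ARID1B_WT within runs, 1604 with equal covered length, 99 with ranking by fold enrichment, and 0 in lists of 9716 peaks, where none of the 8 libraries called it. ARID1B_S320_G327del did not call it in either library, and the other 18 libraries of altered constructs ranked it between 6621 and 14982. In the whole lists this region and the CYR61 start site merged into 1 region of 8720 bp that all 28 libraries called.

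The region in the TEAD1 gene body 18.9 kb from the start site (chr11:12713856-12715942, hg19) ranked 15510 and 14553 with ARID1A_WT, was uncalled in both ARID1B_WT libraries, and ranked 12911, 13307, 13516 and 13119 with Empty_vector. Again the groups did not overlap. The means were 17233 ± 2572 with wild type and 13213 ± 259 with Empty_vector (SD, n = 4 each), a difference of 4020 ranks (exact permutation p = 0.0286, adjusted p = 0.200). The difference was 1922 for ARID1A_WT and 6116 for ARID1B_WT within runs, 830 with equal covered length, and 0 both with ranking by fold enrichment and in lists of 9716 peaks, where none of the 8 libraries called it. In whole lists every one of the 28 libraries called it. Over all 32972 regions the median difference had the same sign, at 129 ranks, and the part of that shift in these values was not tested.

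The 17 regions that were called in all 4 wild-type and no Empty_vector whole list lay at all 5 genes: 2 at CYR61 (35.8 and 29.6 kb upstream), 1 at CTGF (3.4 kb upstream), 4 at ANKRD1, 4 at YAP1 (34.4, 47.0, 119.4 and 134.7 kb downstream of the start site) and 6 at TEAD1 (50.1, 95.1, 118.1, 128.3, 136.0 and 226.3 kb downstream, all within the gene). Wild-type lists held from 59776 to 76530 peaks and Empty_vector lists from 24527 to 49468, so the length of a list and the construct cannot be told apart in these calls. The CTGF region (chr6:132275688-132276178, hg19) was called in both lists of ARID1A_DBDmut, ARID1A_delIDR1, ARID1A_CBR, ARID1B_S320_G327del and ARID1B_A457_G461del. The TEAD1 regions at 50.1 and 226.3 kb were called in the lists of the same 5 constructs.

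**Figure D5:**
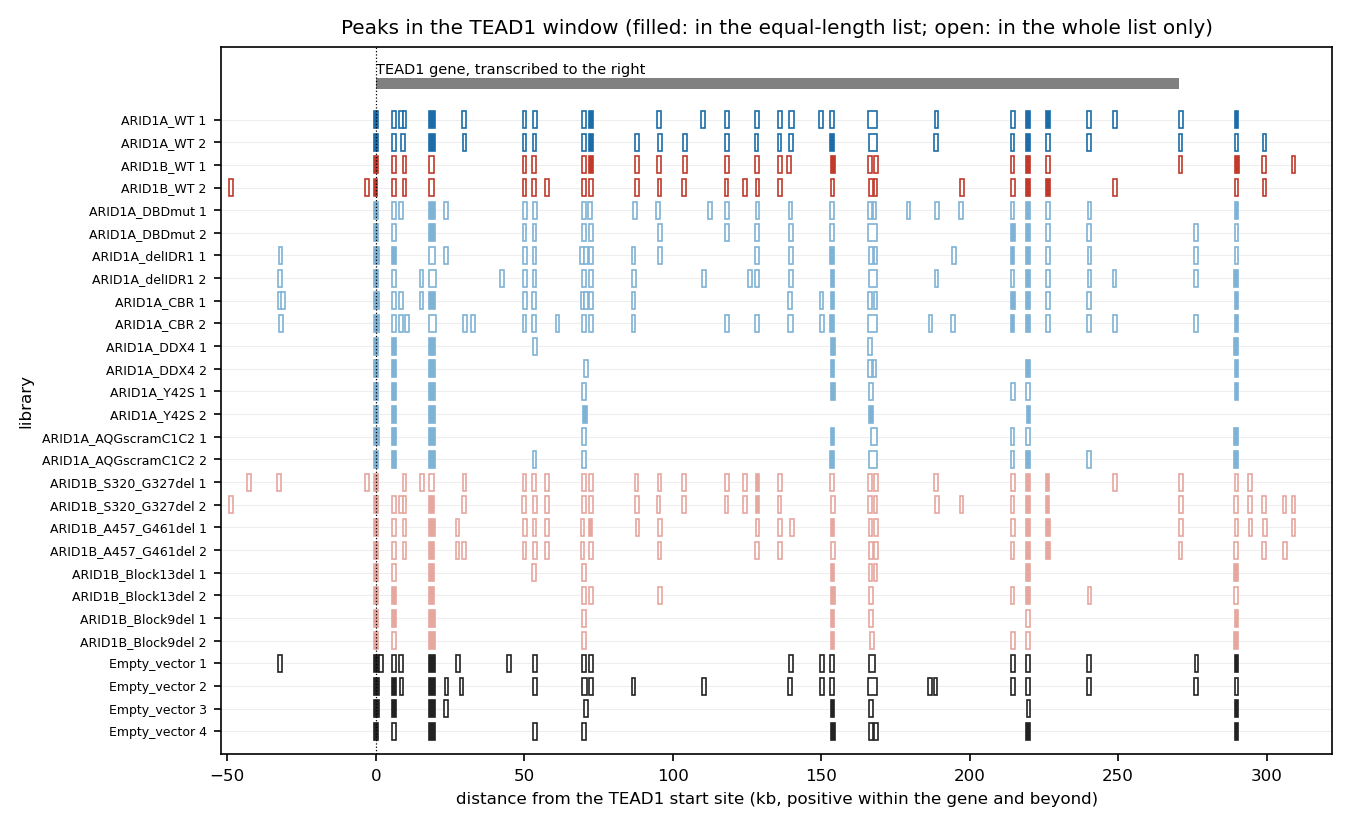
Peaks in the TEAD1 window, 1 row a library, against the distance from the start site (horizontal axis, kb, positive in the direction of transcription). Filled boxes are peaks within the 19433 most significant of a list and open boxes are peaks of the whole list only. The start site is filled in all 28 rows, and the window holds 25 to 28 peaks in the wild-type rows, 31 and 33 in the rows of ARID1B_S320_G327del, and 9 to 22 in the Empty_vector rows.

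Altered constructs called these 17 regions to very different extents, as they did over the series. The 2 lists of ARID1B_S320_G327del called 17 and 17, against 93.0% and 95.7% of the 17400 such regions of the series. ARID1B_A457_G461del called 13 and 15, against 78.6% and 77.2%, ARID1A_DBDmut 13 and 11, against 63.4% and 52.2%, ARID1A_delIDR1 11 and 10, against 36.2% and 52.3%, and ARID1A_CBR 6 and 10, against 18.3% and 35.4%. ARID1B_Block13del called 4 and 3, against 27.4% and 24.0%, ARID1B_Block9del 1 and 2, against 6.94% and 8.02%, ARID1A_AQGscramC1C2 1 and 1, against 1.05% and 3.32%, ARID1A_DDX4 1 and 1, against 0.443% and 0.707%, and ARID1A_Y42S 0 and 0, against 2.08% and 0.264%. Both lists of ARID1A_DDX4 and of ARID1A_AQGscramC1C2 called the ANKRD1 region 9.7 kb upstream and no other of the 17. Of the 17400 regions, 37 (0.213%) were called in both ARID1A_DDX4 lists. A call in at least 18 of the 20 altered lists, as at this ANKRD1 region, occurred in 52 of the 17400 (0.299%). The cut-off of 18 is this region's own count and the region was named for its calls, so these shares are descriptive only.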

How the data were processed

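Per the submitters' processing notes the authors used MACS2, Picard 2.8.0, SAMtools 0.1.19, Bowtie2 and bcl2fastq with build hg19, and each of the 28 libraries has its own list, so peaks were called per sample. Options of the caller, and whether cut sites were shifted, are not stated in the sources used here. Titles name ATAC-seq, although the design text speaks of CUT&Tag, and the lists were taken as ATAC-seq. The deposited columns are a score, a fold enrichment, which is a ratio, a −log10 p-value and a −log10 q-value. The lowest deposited −log10 q-value was between 3.00 and 3.03 in every list.

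Lists were cut to chromosomes 1 to 22 and X and to the 19433 peaks with the largest −log10 p-value, the length of the shortest list. Peaks that overlapped by 1 bp were merged across libraries, and a region needed a call in 2 libraries. A start site is the 5′ end of the gene with 1 kb on either side. Wild type (4 libraries) was compared with Empty_vector (4 libraries) by calls, by Fisher's exact test and by an exact permutation test of mean ranks over 70 splits, both two-sided and adjusted over all regions after Benjamini and Hochberg, with an uncalled library at rank 19434. Altered constructs were described without a test. Named were the 5 genes, their start-site regions, every region called in all of one group and none of the other in lists of equal length, and per gene the region of largest rank difference. Members and lists were chosen with earlier results of these data known. Further pathway genes and cell type markers were not used here for want of coordinates of build hg19, so the labelled cell type was not checked. The tests were tried on simulated calls. Alternatives were whole lists, lists of 9716 peaks, equal covered length, ranking by fold, 50% overlap, a 10 kb window, a −log10 q-value of at least 10, within-run values, the replicate block and leaving out each library. Python 3.11.15, numpy 2.4.6, pandas 2.3.3, scipy 1.17.1 and matplotlib 3.10.9 were used.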

Additional observations from a re-analysis of the deposited data

How the results depend on the processing

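The count of regions called in all wild-type and no Empty_vector library was 1 of 26 (all regions 5.78%). It was 1 of 10 with lists of 9716 peaks (all regions 2.52%) and 1 of 19 with equal covered length (all regions 2.35%). With 50% overlap it was 1 of 25 (all regions 5.38%), and with the 10 kb window 1 of 17 (all regions 5.78%). When each library was left out it ranged from 1 to 2 of 26. The count was 2 without ARID1B_WT 2 (all regions 6.42%) and 2 without Empty_vector 4 (all regions 5.84%). It was 17 of 88 with whole lists (all regions 18.2%), 9 of 42 with the stricter threshold (all regions 9.95%) and 0 of 29 with ranking by fold enrichment (all regions 4.76%). Within runs it was 5 of 26 for ARID1A_WT (runs A and B, all regions 9.19%) and 2 of 26 for ARID1B_WT (run C, all regions 12.6%). The opposite count, 0, became 2 for ARID1B_WT within run C and stayed 0 under every other alternative run. Same-numbered samples gave 6 correlations from −0.0230 to 0.0257, none over 0.1, though ARID1A_WT 1 and 2 share runs A and B with Empty_vector 1 and 2. In groups of 2 libraries these values mirror each other, as 0.00709 and −0.00709 for ARID1A_WT 1 against ARID1B_WT 1 and 2. They therefore cannot show whether samples were paired. With the replicate block the counts were 2 and 0 of 26 (all regions 6.04% and 5.47%), with no adjusted p under 0.05 and a smallest possible p of 0.111. This block went by replicate number and so left out Empty_vector 3 and 4. ARID1B_WT of run C was thus set against Empty_vector libraries of runs A and B only. The count of regions with adjusted p under 0.05 was 0 by Fisher's exact test and by the permutation of ranks, with whole lists, with lists of 9716 peaks and when each library was left out, an alternative added after the data were seen. A smallest possible p of 0.0286 limits these counts, which say nothing about stability. At the ANKRD1 region 9.7 kb upstream the rank difference ranged from −14682 to −13816 when each library was left out. It was 0 with ranking by fold enrichment, where none of the 8 wild-type and Empty_vector libraries placed it in the top 19433. At the ANKRD1 start site it was 722 with equal covered length, where lists differ in length and an uncalled library takes the last rank of its own list. At the TEAD1 start site it ranged from −925 (without ARID1B_WT 1) to 923 when each library was left out, with −240 without Empty_vector 2, and was −396 for ARID1A_WT within runs A and B, and the cause was not tested. Depth was unknown, and a region below a list's threshold cannot be told from closed chromatin.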
